A study of Mus musculus with 12 samples.

Results

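The genes described here are 40 enzymes and transporters of glucose metabolism. They were chosen by name as pathway members, with earlier results of these data known. They comprise 2 glucose transporters, 10 genes of upper glycolysis, 5 of lower glycolysis and 4 of lactate formation and monocarboxylate transport. The others are 3 genes of the pyruvate dehydrogenase step, 7 of the pentose phosphate pathway and 9 of the tricarboxylic acid (TCA) cycle and citrate use. All 40 were found by symbol among the 14323 genes of the deposited count table. RNA was measured by CEL-seq, a method that counts reads at the 3′ ends of transcripts, in naive splenic CD8+ T cells of wild type genotype. The cells came from 3 mice and were sorted as TCRβ+CD8+CD62L+CD44-. From each mouse, 100000 cells per well were cultured for 6 h in wells coated with 1 of 4 antibody combinations, which gave 12 libraries. Unstimulated isotype wells held isotype control antibody only, unstimulated anti-LAIR-1 wells held isotype and the anti-LAIR-1 clone 2C7, and stimulated wells held the anti-CD3ε clone 145-2C11 with either isotype or anti-LAIR-1, each antibody coated at 2.5 µg/ml. The labels list no other stimulus. LAIR-1 is an inhibitory receptor for collagens, and the question the design addresses is how its engagement by coated antibody alters the early transcriptional response to anti-CD3.

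Naive T cells are quiescent and draw their energy largely from mitochondrial oxidation. On antigen receptor engagement they increase glucose uptake, convert much of the resulting pyruvate to lactate even in the presence of oxygen, and divert carbon into the pentose phosphate pathway for NADPH and ribose and into citrate for lipid synthesis and acetylation. Several steps are encoded by paralogues that differ in regulation and kinetics, such as the hexokinases and the lactate dehydrogenase subunits.

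Total counts ranged from 1781218 to 7725545 per library and were higher with anti-CD3, with group medians of 2304214 and 3548881 in unstimulated cells (isotype first) and of 4883760 and 6204054 in stimulated cells. A level of 3 counts thus equalled 0.388 to 1.68 CPM, counts scaled to the library total. Genes of the mitochondrial chromosome took 17.6% to 20.9% of counts in unstimulated libraries and 11.5% to 13.2% with anti-CD3. The activation marker Cd69 rose with anti-CD3 under isotype, by 2.69 ± 0.10 on the log2 scale. The 8 naive CD8+ T cell markers were all detected and summed to 5156 to 5587 CPM unstimulated. With anti-CD3 they summed to 1430 to 1540 CPM under isotype and to 1780 to 2055 CPM under anti-LAIR-1, without overlap. The 5 listed B cell markers summed to 5.75 to 17.9 CPM, with 8.36 to 9.07 CPM for anti-CD3 and isotype and 5.75 to 6.61 CPM for anti-CD3 and anti-LAIR-1. The 5 listed myeloid markers summed to 0 to 4.08 CPM and the 3 CD4 T cell markers to 0.277 to 4.85 CPM. The NK cell list, of which 3 of 4 genes were listed, summed to 37.1 to 54.9 CPM unstimulated, to 167 to 171 CPM with anti-CD3 and isotype, and to 103 to 112 CPM with anti-CD3 and anti-LAIR-1. Whether other cells had a part in the results below was not tested. Counts of Lair1 were too low to test, with group means of 0.203 to 1.48 CPM. In these bulk libraries, fewer cells of a kind and less RNA per cell cannot be told apart.

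Together the 40 genes took 0.317% ± 0.0101 (SD, n = 3) of all counts in unstimulated isotype libraries and 0.659% ± 0.00861 in anti-CD3 isotype libraries. With anti-LAIR-1 the shares were 0.302% ± 0.00893 unstimulated and 0.649% ± 0.0142 with anti-CD3. In CPM scaled by the trimmed mean of M values (TMM), a scale other than that of the shares, the sum over the genes was 2.27-fold higher with anti-CD3 under isotype and 2.33-fold higher under anti-LAIR-1. The increase was uneven along the pathways. Under isotype, the summed level was 3.80-fold higher for lower glycolysis and 3.79-fold higher for lactate formation and monocarboxylate transport, against 1.98-fold for upper glycolysis, 1.58-fold for glucose uptake, 1.54-fold for the pentose phosphate pathway and 1.42-fold for the TCA cycle and citrate use. At the pyruvate dehydrogenase step, where the list holds 2 enzyme subunits and an inhibitory kinase, the sums were 217 ± 13.9 CPM unstimulated and 217 ± 13.7 CPM with anti-CD3. In every step except that one, all 3 anti-CD3 libraries lay above all 3 unstimulated libraries, as the plot of summed levels by step shows. A sum is weighted toward the genes with most reads, so the single genes follow.

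**Figure D1:**
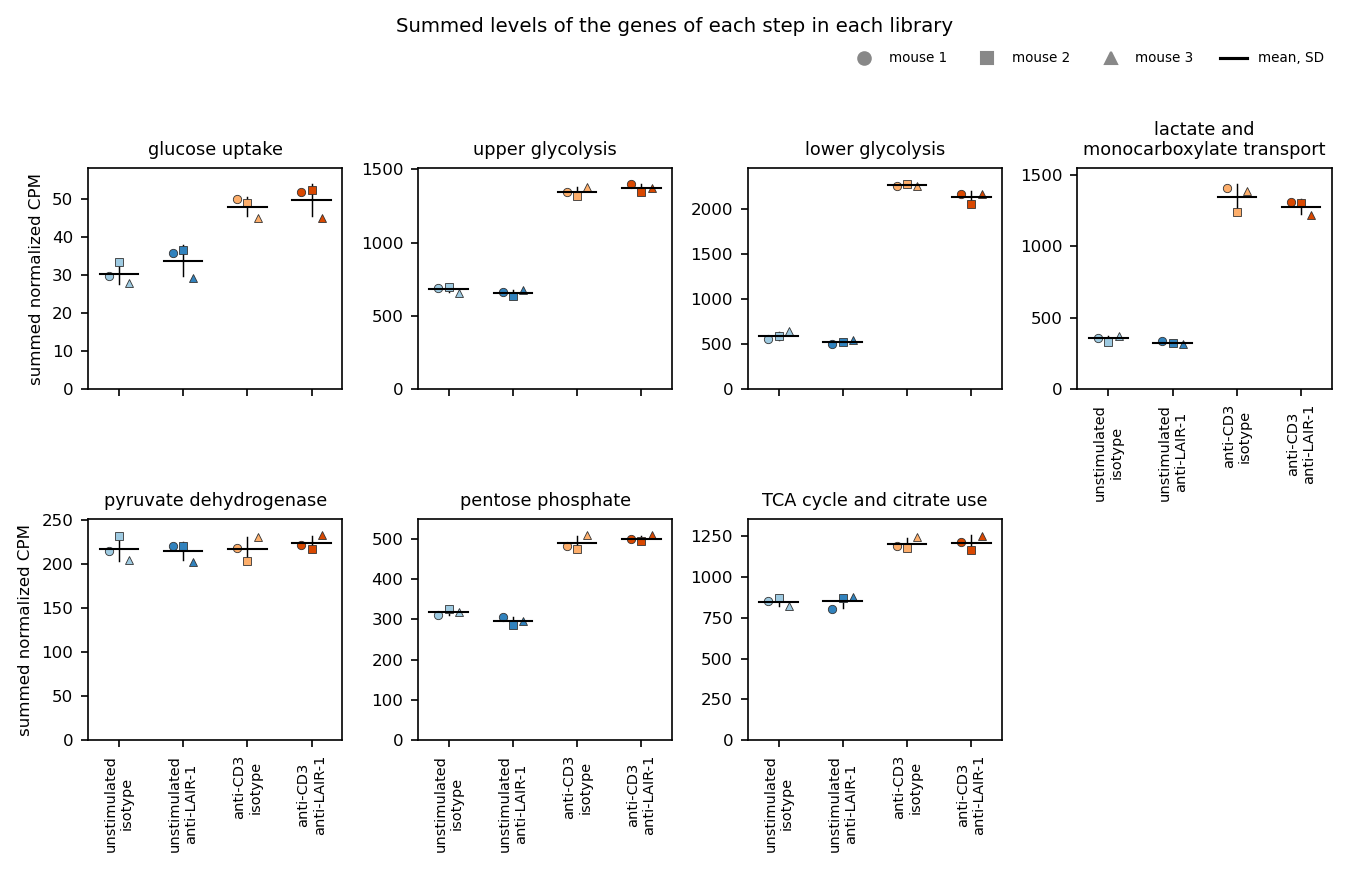
Summed normalized CPM of the genes of each of the 7 steps in each library (points, 1 symbol per mouse), with the mean (horizontal line) and SD (vertical line) of the 3 libraries of each condition. Lower glycolysis goes from 594 ± 44.9 CPM unstimulated to 2257 ± 11.5 CPM with anti-CD3 under isotype, while the pyruvate dehydrogenase step stays near 217 CPM. The anti-LAIR-1 points lie near the isotype points in every panel. They are lower without overlap for lower glycolysis, both with anti-CD3 and unstimulated, and for the pentose phosphate pathway unstimulated. Differences in these sums were not tested.

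Anti-CD3 under isotype raised 25 of the genes and lowered 5. Of the 40, 36 passed the filter on low counts, and the test was edgeR's quasi-likelihood F-test of 3 against 3 libraries, with Benjamini-Hochberg adjustment over all 8690 genes tested and a threshold of 0.05. The response to anti-CD3 covered most of the transcriptome, since 71.3% of all genes tested passed, 35.3% as higher and 36.1% as lower. Against that background, 69.4% of the 36 tested genes were higher and 13.9% were lower, and at an unadjusted p under 0.05 there were 30, or 83.3%, beside 73.3% of all genes tested. Their median log2 fold change was 1.13, beside -0.03 over all genes tested. The 5 genes that fell were Hk1, Pdk1, Pgls, Idh2 and Mdh1, and the 6 that passed in neither direction were Slc2a3, Gpi1, Ldhb, Pdha1, Taldo1 and Cs. The 3 libraries of each group did not overlap for 24 genes that were higher, against 37.7% of all genes tested, and for 5 that were lower, against 35.8%.

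**Figure D2:**
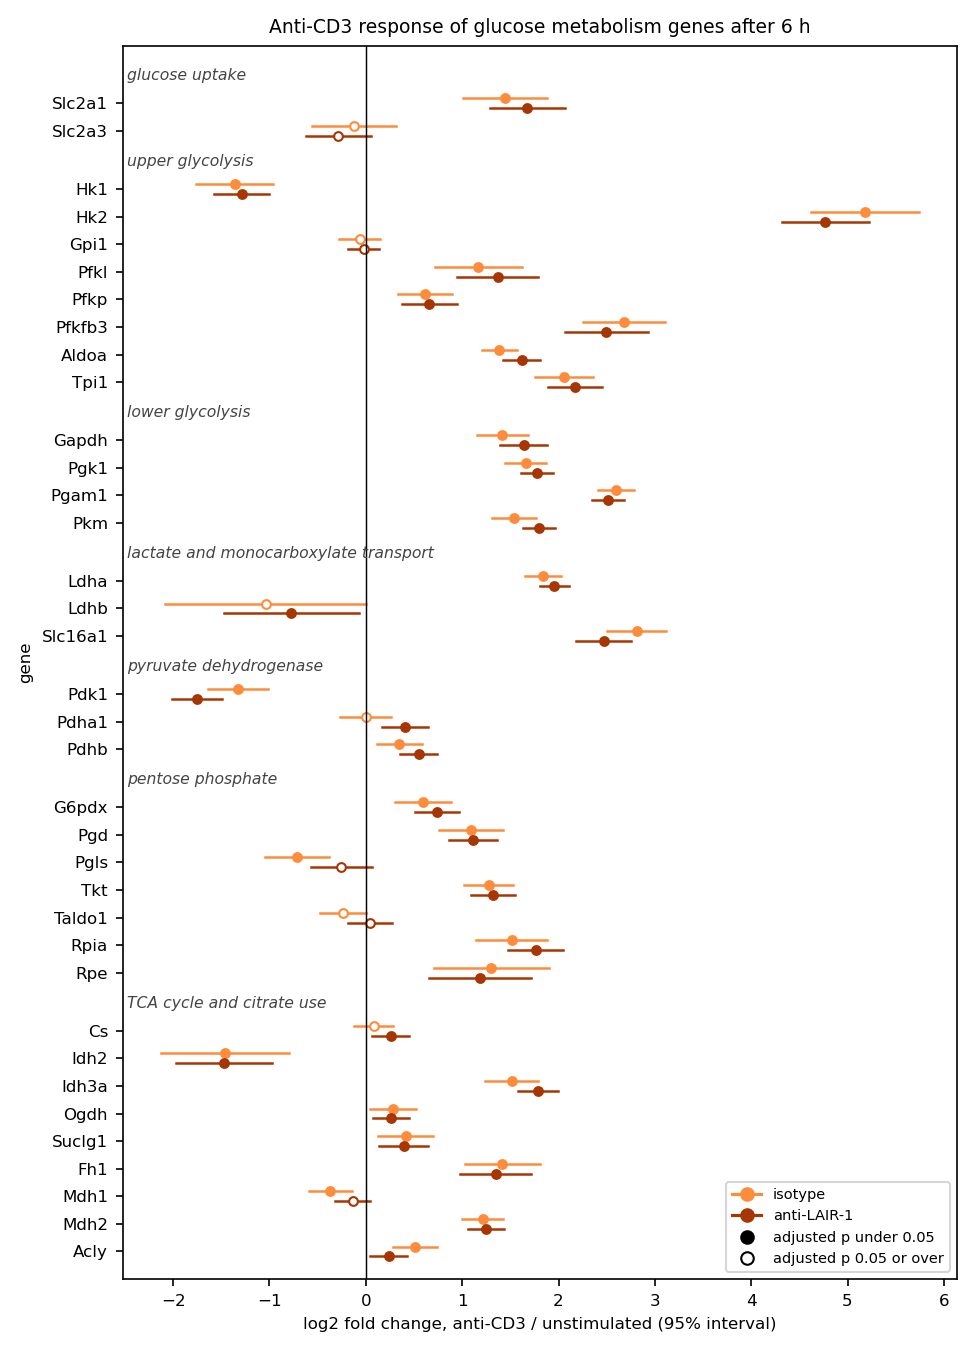
Log2 fold change of anti-CD3 over unstimulated for the 36 tested genes, grouped by step, under isotype (light orange) and under anti-LAIR-1 (brown), with 95% intervals from edgeR. Filled points have an adjusted p under 0.05. Hk2 lies far to the right, at 5.18 and 4.77, and Hk1, Ldhb, Pdk1 and Idh2 lie to the left in both.

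Of the 2 glucose transporters, Slc2a1, which encodes the broadly inducible transporter GLUT1, rose and Slc2a3, which encodes the high-affinity GLUT3, did not pass. Slc2a1 was at 11.6, 10.6 and 8.09 CPM in the unstimulated isotype libraries of mice 1, 2 and 3 and at 28.7, 27.8 and 29.8 CPM with anti-CD3. The groups did not overlap, and the difference was 1.44 ± 0.21 (SE) on the log2 scale, or 2.72-fold (edgeR adjusted p = 2.1e-06). Slc2a3 was at 18.2, 22.9 and 19.95 CPM unstimulated and at 21.5, 21.2 and 15.4 CPM with anti-CD3. These groups overlapped, with a log2 difference of -0.12 ± 0.21 and a 95% interval of -0.56 to 0.32. The estimate was 0.06 without the anti-CD3 isotype library of mouse 3.

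The 2 hexokinases, which phosphorylate glucose on entry, moved in opposite directions. Hk2, which encodes the inducible isoform, was close to the detection limit before stimulation, at 2.98, 1.63 and 0.539 CPM (9, 4 and 1 counts), and reached 68.3, 82.7 and 64.8 CPM with anti-CD3 under isotype. The log2 difference was 5.18 ± 0.27, or 36.3-fold, with a 95% interval of 4.62 to 5.74 (edgeR adjusted p = 4.5e-14), the highest fold change among the 36 tested genes. Without the unstimulated library of mouse 1, which held 9 of its 14 unstimulated counts, the log2 difference was 5.88, above that interval. Hk2 passed the filter on low counts only through its anti-CD3 libraries. Hk1, which encodes the constitutive isoform, was at 39.7, 57.2 and 33.4 CPM unstimulated and at 18.7, 17.6 and 16.2 CPM with anti-CD3. It fell by 1.36 ± 0.19 on the log2 scale, or 2.57-fold (edgeR adjusted p = 1.2e-06), with no overlap between the groups. The same opposite pair was seen under anti-LAIR-1, where Hk2 went from 2.49, 2.12 and 1.87 CPM to 65.3, 62.9 and 50.4 CPM and Hk1 from 42.7, 50.2 and 43.6 CPM to 18.3, 18.6 and 19.3 CPM. The log2 differences there were 4.77 ± 0.22 for Hk2 and -1.29 ± 0.14 for Hk1.

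Phosphofructokinase, which commits sugar phosphate to glycolysis, is built from 3 subunit genes, and those for the liver and platelet types rose. Pfkl went from 11.6, 13.1 and 8.63 CPM to 22.7, 26.9 and 27.8 CPM, a log2 difference of 1.17 ± 0.22. Pfkp went from 48.7, 44.9 and 38.8 CPM to 61.7, 71.0 and 75.9 CPM, a smaller log2 difference of 0.62 ± 0.14 (edgeR adjusted p = 0.00034). The muscle-type gene Pfkm was too low to test in any comparison, with 16 counts over the 3 unstimulated isotype libraries (1.32, 2.45 and 3.24 CPM) and 11 with anti-CD3 (0.907, 0.636 and 0.804 CPM). Pfkfb3, whose product makes the allosteric activator of phosphofructokinase, rose by 2.68 ± 0.20 on the log2 scale, from 7.18 ± 1.32 to 47.7 ± 2.85 CPM (SD, n = 3).

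Below that step, Aldoa, which encodes the ubiquitous aldolase, was at 292, 252 and 290 CPM unstimulated and at 753, 735 and 746 CPM with anti-CD3. It rose by 1.39 ± 0.09 on the log2 scale (edgeR adjusted p = 1.8e-12). The brain-type paralogue Aldoc was too low to test, with 9 counts over the unstimulated isotype libraries (0.662, 0.408 and 3.24 CPM) and 0 in each anti-CD3 isotype library, where a count of 0 allows up to 3 counts. Tpi1, which encodes triose phosphate isomerase, rose by 2.05 ± 0.14 on the log2 scale. Gpi1, which encodes the isomerase that acts on glucose phosphate, was at 266 ± 26.4 CPM unstimulated and 261 ± 29.6 CPM with anti-CD3. Its log2 difference of -0.06 had a 95% interval of -0.27 to 0.15, so a change of the size seen in its neighbours in the pathway lay outside that interval.

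All 4 tested genes of lower glycolysis rose, and Pgam1, which encodes phosphoglycerate mutase, had the lowest p of the 36 genes. Pgam1 was at 147, 146 and 135 CPM unstimulated and at 894, 900 and 865 CPM with anti-CD3. The log2 difference was 2.60 ± 0.09, or 6.04-fold (edgeR adjusted p = 4.4e-17). Pgk1, which encodes the ATP-forming phosphoglycerate kinase, went from 168, 138 and 176 CPM to 538, 478 and 541 CPM, a log2 difference of 1.66 ± 0.10. Neither pair of groups overlapped. Pkm, the pyruvate kinase gene, rose by 1.54 ± 0.11, but 3′ counts per gene do not separate its splice forms. Gapdh rose by 1.42 ± 0.13, from 40.4 ± 3.48 to 110 ± 8.83 CPM. Reads that mapped equally well to several places had been discarded. In the last 500 bases of the annotated Gapdh transcripts 61.1% of 60-base stretches also occurred in other annotated genes, so its level is uncertain. The same holds for Eno1, the enolase gene, with 66.2% of such stretches shared. Eno1 had 0 counts in the unstimulated isotype libraries and 10 over the anti-CD3 isotype libraries, and was not tested. For 29 of the 40 genes no such stretch was shared, and for the other 9 the share was between 4.7% and 23.9%.

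Lactate dehydrogenase is a tetramer of subunits encoded by Ldha and Ldhb, the first associated with lactate formation. Ldha was at 340, 310 and 352 CPM unstimulated and at 1278, 1122 and 1266 CPM with anti-CD3 under isotype. It rose by 1.84 ± 0.09 on the log2 scale, or 3.57-fold (edgeR adjusted p = 1.2e-14). Ldhb was low throughout, at 4.63, 2.45 and 4.31 CPM unstimulated and 3.63, 1.27 and 1.29 CPM with anti-CD3. Its groups overlapped and its log2 difference was -1.04 ± 0.51 (edgeR adjusted p = 0.070). It passed as lower in 3 of 13 alternative settings. Among these were the fits without the unstimulated library of mouse 2 (-1.28) or the anti-CD3 library of mouse 1 (-1.56). Under anti-LAIR-1, Ldhb went from 6.10, 4.78 and 5.62 CPM to 4.18, 3.04 and 2.12 CPM. It passed there with a log2 difference of -0.78 ± 0.33 (edgeR adjusted p = 0.044), and this call was lost without any 1 of 5 of the 6 libraries, the exception being the anti-CD3 library of mouse 1. The estimates without one of those 5 lay between -0.57 and -0.87, and the call was also lost by DESeq2 (-0.75). In all, it held in 6 of 15 alternative settings.

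Slc16a1, which encodes the lactate exporter MCT1, went from 14.6, 20.003 and 15.1 CPM to 123, 117 and 117 CPM under isotype. The log2 difference was 2.81 ± 0.15, or 7.02-fold (edgeR adjusted p = 4.8e-14), the second highest fold change after Hk2. Its paralogue Slc16a3, which encodes MCT4, was at 0.331, 0.816 and 0 CPM unstimulated and at 0.302, 0.212 and 0.322 CPM with anti-CD3. With 3 and 4 counts in those groups it could not be tested, and no difference was detectable at this depth.

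**Figure D3:**
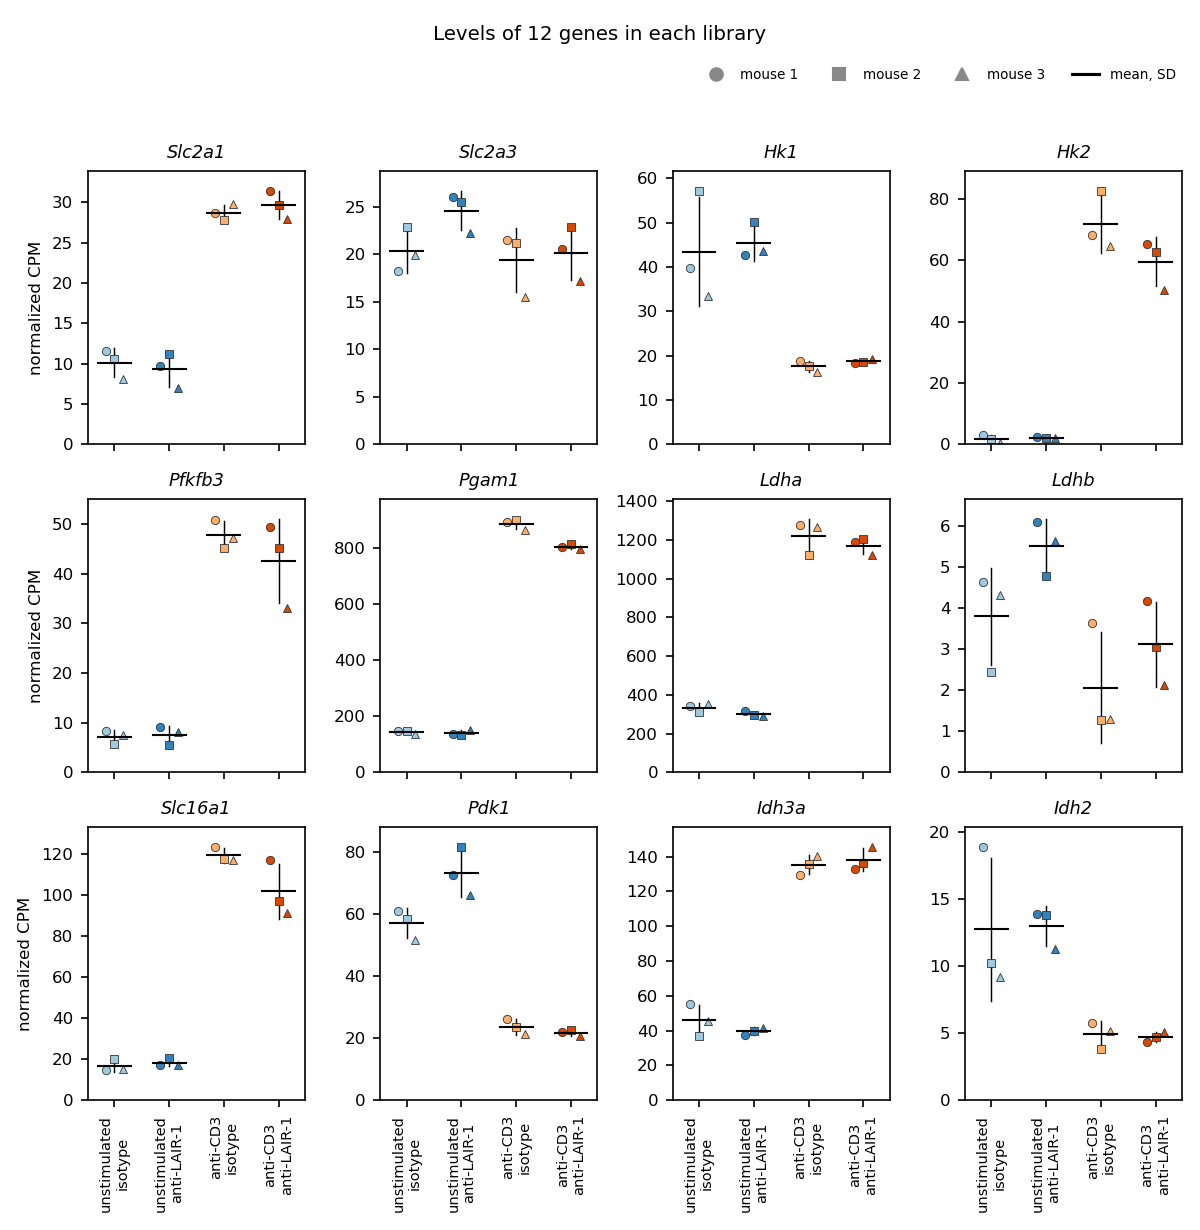
Normalized CPM of 12 genes in each library (points, 1 symbol per mouse) with the mean (horizontal line) and SD (vertical line) of the 3 libraries per condition, each panel on its own axis from 0. The paralogues Hk1 and Hk2 go in opposite directions, as do Idh2 and Idh3a, and Ldhb stays under 7 CPM. Within anti-CD3 and within unstimulated libraries, the isotype and anti-LAIR-1 points overlap or lie close together.

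At the entry of pyruvate into the TCA cycle, the kinase and its target moved differently. Pdk1, which encodes a kinase that inactivates pyruvate dehydrogenase, was at 61.2, 58.4 and 51.8 CPM unstimulated and at 26.3, 23.5 and 21.2 CPM with anti-CD3. It fell by 1.33 ± 0.15 on the log2 scale, or 2.51-fold (edgeR adjusted p = 4.4e-08). Pdhb, which encodes the beta subunit of the E1 component, went from 102, 119 and 98.7 CPM to 140, 125 and 152 CPM, a log2 difference of 0.35 ± 0.11 (edgeR adjusted p = 0.0091). The alpha subunit gene Pdha1 was at 51.6, 55.1 and 54.5 CPM unstimulated and at 51.7, 54.7 and 57.6 CPM with anti-CD3, with overlapping groups and a 95% interval of -0.27 to 0.26 for the log2 difference. The Pdhb call was lost when libraries were scaled by the upper quartile (0.17) or by totals alone (0.26).

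In the pentose phosphate pathway 5 of 7 genes rose, from both its oxidative and its non-oxidative arm. Of the oxidative arm, G6pdx, the gene for the first and rate-limiting dehydrogenase, rose by 0.59 ± 0.14 on the log2 scale and Pgd, the gene for phosphogluconate dehydrogenase, by 1.09 ± 0.16. Pgls, which encodes the lactonase between them, fell by 0.71 ± 0.16, from 42.7, 42.5 and 36.1 CPM to 23.9, 24.2 and 27.7 CPM (edgeR adjusted p = 0.00038). Of the non-oxidative arm, Tkt, the transketolase gene, went from 49.3, 47.8 and 58.2 CPM to 116, 135 and 131 CPM, a log2 difference of 1.28 ± 0.12. Rpia, whose product interconverts ribose and ribulose phosphates, went from 17.5, 28.6 and 27.5 CPM to 59.6, 67.0 and 83.3 CPM, a log2 difference of 1.52 ± 0.18. No pair of groups overlapped for Pgls, Tkt or Rpia. Rpe, an epimerase gene of the same arm, rose by 1.30 ± 0.29. Taldo1, the transaldolase gene, had a log2 difference of -0.24 ± 0.12 (edgeR adjusted p = 0.073). It passed as lower in 5 of 15 alternative settings, among them without the anti-CD3 library of mouse 1 (-0.30).

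The TCA cycle genes had a lower median log2 fold change than glycolysis, 0.41 over 9 genes beside 1.28 over 8 genes of upper and 1.60 over 4 genes of lower glycolysis, and 2 of the 9 fell. The mitochondrial malate dehydrogenase gene Mdh2 went from 99.6, 113 and 107 CPM to 242, 243 and 272 CPM, a log2 difference of 1.21 ± 0.10 (edgeR adjusted p = 3.0e-10). Its cytosolic paralogue Mdh1 went from 148, 128 and 132 CPM to 104, 106 and 113 CPM and fell by 0.37 ± 0.11 (edgeR adjusted p = 0.0037). Among the isocitrate dehydrogenases, Idh3a, which encodes a subunit of the NAD-dependent enzyme of the cycle, went from 55.3, 37.1 and 45.3 CPM to 129, 136 and 140 CPM. It rose by 1.51 ± 0.13. Idh2, which encodes the mitochondrial NADP-dependent enzyme, went from 18.9, 10.2 and 9.17 CPM to 5.74, 3.81 and 5.15 CPM and fell by 1.46 ± 0.32 (edgeR adjusted p = 0.00030). In each of these 4 genes the unstimulated and anti-CD3 libraries were apart. Fh1, the fumarase gene, rose by 1.42 ± 0.19, and Acly, whose product splits exported citrate into acetyl-CoA, by 0.51 ± 0.11.

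Smaller differences were found for Suclg1, a succinyl-CoA ligase subunit gene, at 0.41 ± 0.14, and Ogdh, which encodes the first component of oxoglutarate dehydrogenase, at 0.29 ± 0.12 (edgeR adjusted p = 0.031). With upper-quartile scaling Suclg1 did not pass under isotype (0.24) or under anti-LAIR-1 (0.18, beside 0.39 ± 0.12 as fitted). The call on Ogdh held in 8 of 15 alternative settings. It was lost with upper-quartile scaling (0.11), library totals alone (0.19), thinning (0.24) and a minimum of 10 counts in every library (0.23), and without the unstimulated library of mouse 1 (0.21) or mouse 3 (0.22) or the anti-CD3 library of mouse 1 (0.24). Cs, the citrate synthase gene at the head of the cycle, was at 197 ± 9.23 CPM unstimulated and 213 ± 17.1 CPM with anti-CD3. Its log2 difference was 0.08, with a 95% interval of -0.12 to 0.28.

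The 250 bases before the annotated transcription starts of the genes were searched for ACGTG, the core of the hypoxia response element, and for CACGTG, the E-box bound by MYC and related factors, on both strands (ACGTG reads CACGT on the other strand, and each CACGTG also holds the core). RefSeq windows on GRCm38.p6 were matched for 38 of the 40 genes, with 57 windows since some genes have several starts whose windows may overlap. The core was present in 54.3% of the 35 windows of genes that rose under isotype (12 of 24 genes) and in 14.3% of the 7 windows of genes that fell (1 of 5 genes). Over the reference it was present in 16.6% of all 32851 windows, in 23.2% of the 8435 windows of genes tested here, and in 25.9% of the 2908 windows of genes that rose under isotype. By gene, 29.4% of the 2360 genes in that last set had a window with the core. The E-box was present in 16.7% of the 24 genes of this list that rose (4 genes) and in 12.8% of all genes that rose. Ogdh alone has 6 of the 35 windows. These matches describe the letters only, and binding was not measured. Tpi1 and Rpia rose by over 1.5 on the log2 scale (2.05 and 1.52) with no core in their windows, and Mdh1 fell with 1 core. Shown as examples are 4 windows with ACGTG from genes that rose by over 1.5, and 2 windows without ACGTG from genes that fell. Each is read 5′ to 3′ on the strand of its gene with the matched motif in capitals.
Hk2, chr6:82774455-82774704, minus strand: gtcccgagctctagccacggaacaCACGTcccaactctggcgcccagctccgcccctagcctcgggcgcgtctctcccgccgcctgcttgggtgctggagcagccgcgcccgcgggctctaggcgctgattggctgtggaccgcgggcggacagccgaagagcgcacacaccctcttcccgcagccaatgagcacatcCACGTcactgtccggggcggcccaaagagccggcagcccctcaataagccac
Pgk1, chrX:106186850-106187099, plus strand: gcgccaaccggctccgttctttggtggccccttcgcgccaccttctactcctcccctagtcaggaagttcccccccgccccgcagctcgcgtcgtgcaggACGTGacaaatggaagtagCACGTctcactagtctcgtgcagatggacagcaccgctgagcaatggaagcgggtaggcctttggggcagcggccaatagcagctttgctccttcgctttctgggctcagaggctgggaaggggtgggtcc
Ldha, chr7:46845554-46845803, plus strand: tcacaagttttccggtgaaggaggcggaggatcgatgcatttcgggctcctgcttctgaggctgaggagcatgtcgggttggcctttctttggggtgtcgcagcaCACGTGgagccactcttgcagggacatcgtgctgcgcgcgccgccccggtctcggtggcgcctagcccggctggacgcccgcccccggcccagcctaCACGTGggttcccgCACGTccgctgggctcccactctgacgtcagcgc
Slc16a1, chr3:104638414-104638663, plus strand: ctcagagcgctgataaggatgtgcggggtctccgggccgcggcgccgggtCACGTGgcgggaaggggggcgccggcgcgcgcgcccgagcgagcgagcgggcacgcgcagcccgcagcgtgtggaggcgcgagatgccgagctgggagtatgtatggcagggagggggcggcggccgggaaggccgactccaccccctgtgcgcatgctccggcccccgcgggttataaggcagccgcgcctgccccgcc
Hk1, chr10:62379909-62380158, minus strand: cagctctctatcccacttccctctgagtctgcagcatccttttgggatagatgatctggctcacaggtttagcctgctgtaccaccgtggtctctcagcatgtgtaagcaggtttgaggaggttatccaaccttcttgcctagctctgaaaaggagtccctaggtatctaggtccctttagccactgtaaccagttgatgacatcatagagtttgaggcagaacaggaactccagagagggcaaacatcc
Pdk1, chr2:71872974-71873223, plus strand: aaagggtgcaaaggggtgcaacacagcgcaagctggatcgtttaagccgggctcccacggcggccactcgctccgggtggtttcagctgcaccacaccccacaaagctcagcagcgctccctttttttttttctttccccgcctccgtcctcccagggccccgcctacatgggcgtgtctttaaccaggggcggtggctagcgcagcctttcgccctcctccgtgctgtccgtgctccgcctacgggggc
The Hk2 and Pgk1 windows hold 2 cores each outside an E-box, the Ldha window holds 2 E-boxes and 1 further core, and the Slc16a1 window holds 1 E-box. The Ldha, Hk1 and Pdk1 windows belong to the first of 2 starts listed for these genes, and the second windows hold neither motif. Of the windows shown, those of Slc16a1 and Pdk1 hold GCGTG, as does the second Hk1 window.

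The same comparison under anti-LAIR-1 used the other 6 libraries, from the same 3 mice. Anti-CD3 raised 27 of the 36 tested genes and lowered 4, beside 72.7% of all 9000 genes tested (36.4% higher and 36.3% lower). At an unadjusted p under 0.05 there were 31, or 86.1%, beside 74.5% of all genes tested, and the median log2 fold change was 1.15 over these genes and -0.04 over all. The 25 genes that rose under isotype were all called higher again, and Hk1, Pdk1 and Idh2 were called lower in both. The genes that differed in call were Pdha1 and Cs (neither under isotype, higher under anti-LAIR-1), Ldhb (neither, then lower), and Pgls and Mdh1 (lower, then neither). A difference in call is not a difference in effect, and the test of the difference itself, below, passed for none of the genes. The 3 libraries of each group did not overlap for 27 genes that were higher, against 37.6% of all genes tested, and for 5 that were lower, against 37.2%.

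In size, the estimates lay close for genes such as Pgam1 and Ldha. They lay further apart for others, such as Pdk1, Pgls, Acly and Pdha1 (-1.33, -0.71, 0.51 and -0.003 under isotype). None of these differences passed the test below. Pgam1 rose by 2.51 ± 0.08 on the log2 scale, from 136, 134 and 152 CPM to 806, 815 and 796 CPM, Ldha by 1.96 ± 0.07, from 315, 295 and 292 CPM to 1187, 1203 and 1124 CPM, and Slc16a1 by 2.47 ± 0.14, from 17.2, 20.4 and 17.4 CPM to 117, 97.2 and 91.1 CPM. Slc2a1 rose by 1.68 ± 0.19, Pfkfb3 by 2.49 ± 0.21, Tpi1 by 2.17 ± 0.13, Pgk1 by 1.77 ± 0.08 and Idh3a by 1.79 ± 0.10. Pdk1 fell by 1.75 ± 0.13, from 72.6, 81.7 and 66.1 CPM to 22.1, 22.6 and 20.8 CPM. Its libraries were apart in both comparisons. Pdha1 rose by 0.41 ± 0.11 (edgeR adjusted p = 0.0035), from 44.1, 40.1 and 47.9 CPM to 60.01, 55.9 and 60.2 CPM. With upper-quartile scaling Pdha1 did not pass (0.20, edgeR adjusted p = 0.13). The calls on Acly (0.24 ± 0.09) and Ogdh (0.26 ± 0.09) held in 9 and 10 of 15 alternative settings. They were each lost without the unstimulated anti-LAIR-1 library of mouse 1 (0.18 and 0.20) or the anti-CD3 library of mouse 1 (0.21 and 0.22), and with upper-quartile scaling (0.029 and 0.051), library totals alone (0.12 and 0.15) or thinning (0.18 and 0.20). Acly was also lost with a minimum of 10 counts in every library (0.19). The call on Cs (0.26 ± 0.09) held in 12 of 15 settings. It was lost with upper-quartile scaling (0.051), with library totals alone (0.15) and without the anti-CD3 library of mouse 3 (0.17). Pgls (-0.26 ± 0.15) passed as lower in 4 of 15 alternative settings, among them without that library (-0.41).

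Anti-LAIR-1 against isotype in the presence of anti-CD3 changed none of the 36 tested genes by edgeR at an adjusted p under 0.05, while 5.76% of all 8800 genes tested passed (3.90% higher and 1.86% lower). At an unadjusted p under 0.05 there were 3 of the 36, or 8.33%, beside 18.8% of all genes tested, and DESeq2 also called none. Their median log2 difference was 0.02, beside 0.00 over all genes tested. For 31 of the 36 genes the 95% interval lay wholly within 0.5 of 0 on the log2 scale, so that a change of that size in either direction was outside the interval. The exceptions were Hk2, Ldhb, Pgls, Rpe and Idh2. This comparison uses the same anti-CD3 libraries as the comparisons above and is not independent of them. The widest interval was that of Ldhb, at -0.20 to 1.71, and for Aldoa it was -0.09 to 0.17. The summed level of lower glycolysis was 2257 ± 11.5 CPM with isotype and 2127 ± 63.8 CPM with anti-LAIR-1, and that of upper glycolysis 1346 ± 29.9 and 1371 ± 26.0 CPM.

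The 3 genes under the unadjusted threshold were all lower with anti-LAIR-1. Slc16a1 was at 123, 117 and 117 CPM with isotype and 117, 97.2 and 91.1 CPM with anti-LAIR-1, a log2 difference of -0.23 ± 0.10 (edgeR adjusted p = 0.19). Pgam1 was at 894, 900 and 865 CPM and at 806, 815 and 796 CPM, a log2 difference of -0.14 ± 0.06 (edgeR adjusted p = 0.21). Hk2 was at 68.3, 82.7 and 64.8 CPM and at 65.3, 62.9 and 50.4 CPM, a log2 difference of -0.27 ± 0.12 (edgeR adjusted p = 0.22). In each of the 3 the anti-LAIR-1 library was lower in 3 of 3 mice, which adds no support, as these genes were picked by their p. The groups were apart for Pgam1 and Slc16a1 and overlapped for Hk2. In all, 1 gene was apart as higher (Aldoa) and 2 as lower, against 12.9% and 11.1% of all genes tested.

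**Figure D4:**
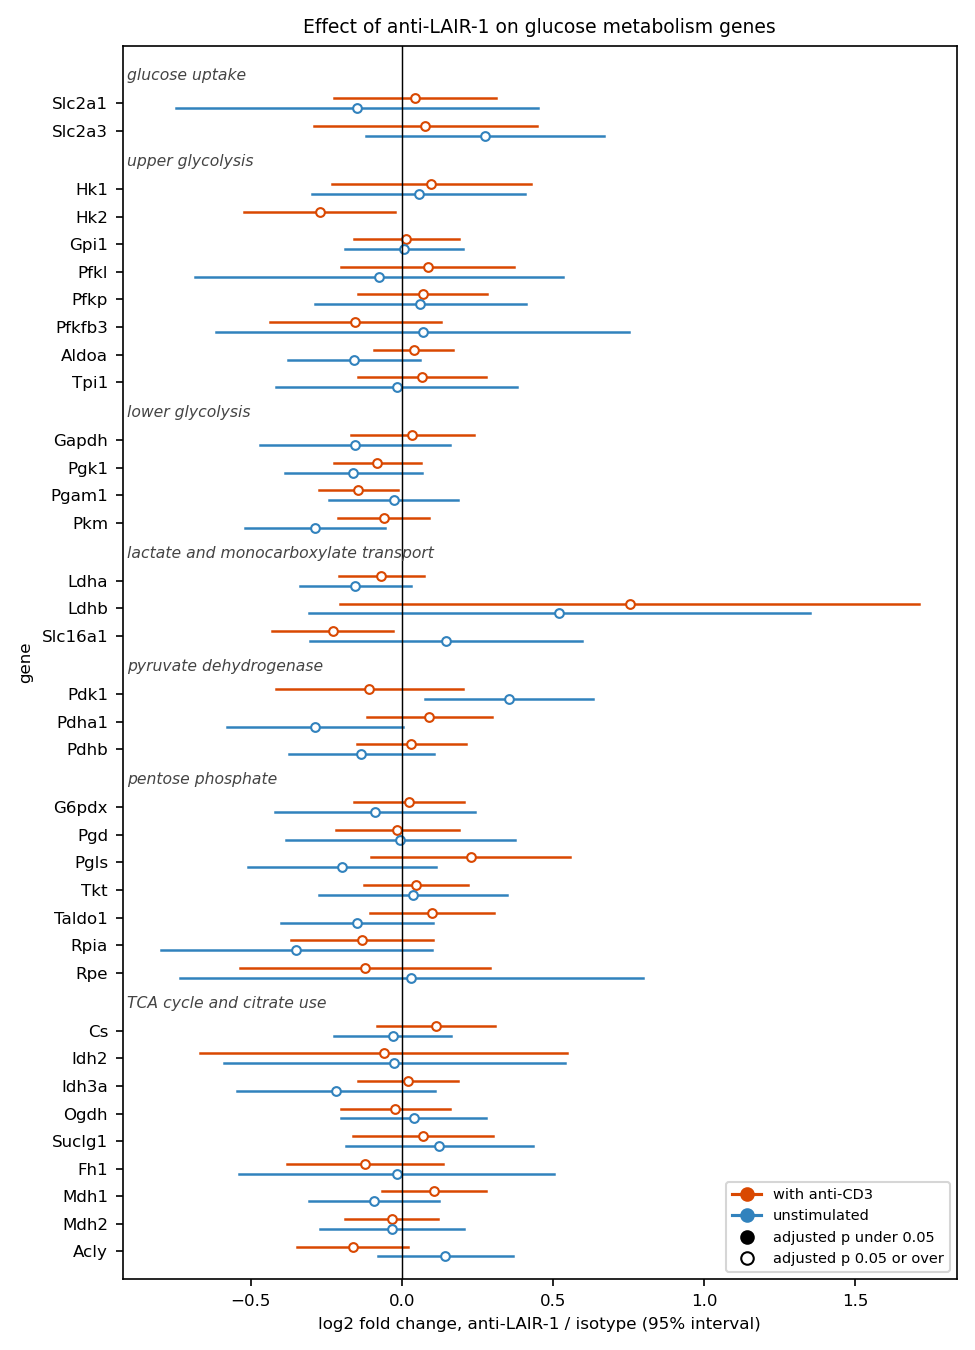
Log2 fold change of anti-LAIR-1 over isotype with anti-CD3 (36 genes, orange) and without (35 genes, blue), with 95% intervals from edgeR and open points for an adjusted p of 0.05 or over. Every point is open, most lie within 0.3 of 0, and the median distance from a point to the end of its interval is 0.20 with anti-CD3 and 0.31 without.

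In unstimulated cells, where Hk2 was too low to test, anti-LAIR-1 changed none of the 35 tested genes, and edgeR called 0 of all 8770 genes. At an unadjusted p under 0.05 there were 2 of the 35, or 5.71%, beside 4.38% of all genes tested, and DESeq2 called none. Pdk1 was at 61.2, 58.4 and 51.8 CPM with isotype and 72.6, 81.7 and 66.1 CPM with anti-LAIR-1, a log2 difference of 0.35 ± 0.13. It was higher in 3 of 3 mice, which adds no support, as it was picked by its p. Pkm was at 199, 268 and 285 CPM and at 197, 215 and 202 CPM, a log2 difference of -0.29 ± 0.11, and its groups overlapped. The edgeR adjusted p was 0.997 for both. The 95% interval lay within 0.5 of 0 for 20 of the 35 genes, so this comparison limits changes less closely than the one with anti-CD3. The libraries were apart for 2 genes as higher (Pdk1 and Ldhb) and for 1 as lower (Pdha1), against 4.80% and 4.86% of all genes tested.

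Whether the response to anti-CD3 differed between anti-LAIR-1 and isotype was tested as the interaction in 1 fit of all 12 libraries. None of the 36 genes passed, while 2.07% of all 9223 genes tested did (1.82% higher and 0.249% lower). At an unadjusted p under 0.05 there were 3 of the 36, or 8.33%, beside 12.2% of all genes tested, and DESeq2 called none. These were Pdk1, with a log2 difference between the responses of -0.45 ± 0.19 (edgeR adjusted p = 0.31), Pdha1 with 0.38 ± 0.16 (0.31 as adjusted p) and Acly with -0.30 ± 0.14 (0.38 as adjusted p). In each of them the difference had the same sign in 3 of 3 mice. This adds no support, since the genes were picked by their p in these same libraries. For Hk2, with its few unstimulated counts, the 95% interval was -1.50 to 0.60, and for 15 of the 36 genes it lay within 0.5 of 0.

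Of 65 further genes of the same pathways, 36 passed the filter for anti-CD3 under isotype, with a median log2 difference of 0.29. Of these, 16 rose and 7 fell (44.4% and 19.4%, beside 35.3% and 36.1% of all genes tested). The highest-ranked that rose were Got1, an aminotransferase of the malate-aspartate shuttle (1.57 ± 0.18), Dlat, the E2 component of pyruvate dehydrogenase (1.17 ± 0.14), and Prps1, which makes the ribose donor for nucleotides (0.82 ± 0.11). The highest-ranked that fell were Pdk2, a further pyruvate dehydrogenase kinase (-3.74 ± 0.36), Idh1, the cytosolic NADP-dependent isocitrate dehydrogenase (-2.31 ± 0.54), and Pfkfb1 (-1.97 ± 0.50). Pdk2 went from 13.6, 18.0 and 16.7 CPM to 0.907, 1.48 and 1.13 CPM, so it fell as Pdk1 did. Pfkfb1 had 10, 11 and 7 counts unstimulated and 3, 4 and 7 with anti-CD3. Both Pdk2 and Pfkfb1 passed the filter on low counts only through their unstimulated libraries. Another kinase gene, Pdk3, rose, from 48.3, 44.1 and 39.9 CPM to 73.5, 78.6 and 80.6 CPM under isotype (0.77 ± 0.13, edgeR adjusted p = 1.2e-05) and by 0.97 ± 0.13 under anti-LAIR-1, without overlap in either. It was added after its values were seen. Without the anti-CD3 library of mouse 1, the log2 difference of Idh1 was -3.01. Under anti-LAIR-1, 18 rose and 7 fell of 36 (50.0% and 19.4%, beside 36.4% and 36.3% of all genes tested). Among those that rose were Got1 (1.45 ± 0.11) and Dlat (1.11 ± 0.12), and the highest-ranked that fell were Pdk2 (-2.82 ± 0.33), Idh1 (-2.69 ± 0.40) and Shpk (-2.97 ± 0.49). With anti-LAIR-1 against isotype, 0 of 33 passed with anti-CD3 and 0 of 39 without, and 0 of 39 passed for the interaction. At an unadjusted p under 0.05 those counts were 2, 3 and 2 (6.06%, 7.69% and 5.13%), beside 18.8%, 4.38% and 12.2% of all genes tested.

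Of 16 regulators of these pathways, 14 were tested, and under isotype 5 rose and 4 fell with anti-CD3. These were 35.7% and 28.6% of those tested, beside 35.3% and 36.1% of all genes tested. Myc, a transcription factor that drives glycolytic genes in activated T cells, was at 48.6, 35.5 and 48.0 CPM unstimulated and at 616, 711 and 744 CPM with anti-CD3, a log2 difference of 3.94 ± 0.12 (edgeR adjusted p = 6.6e-18). Hif1a, the oxygen-regulated factor that binds the core motif, rose by 0.84 ± 0.14, while its partner Arnt fell by 1.16 ± 0.24. Mlx, the partner of the glucose-sensing factors MondoA and ChREBP, rose by 0.71 ± 0.13, and Prkaa1, the gene for a catalytic subunit of AMP-activated kinase, fell by 1.87 ± 0.33. Txnip, a target of MondoA whose product restrains glucose uptake, fell by 3.55 ± 0.11, or from 600 ± 52.4 to 52.8 ± 4.93 CPM. Under anti-LAIR-1, 3 rose and 4 fell (21.4% and 28.6%, beside 36.4% and 36.3% of all genes tested). Myc moved by 3.68 ± 0.10 and Hif1a by 0.81 ± 0.10 upward, and Txnip by 2.81 ± 0.10 downward.

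**Figure D5:**
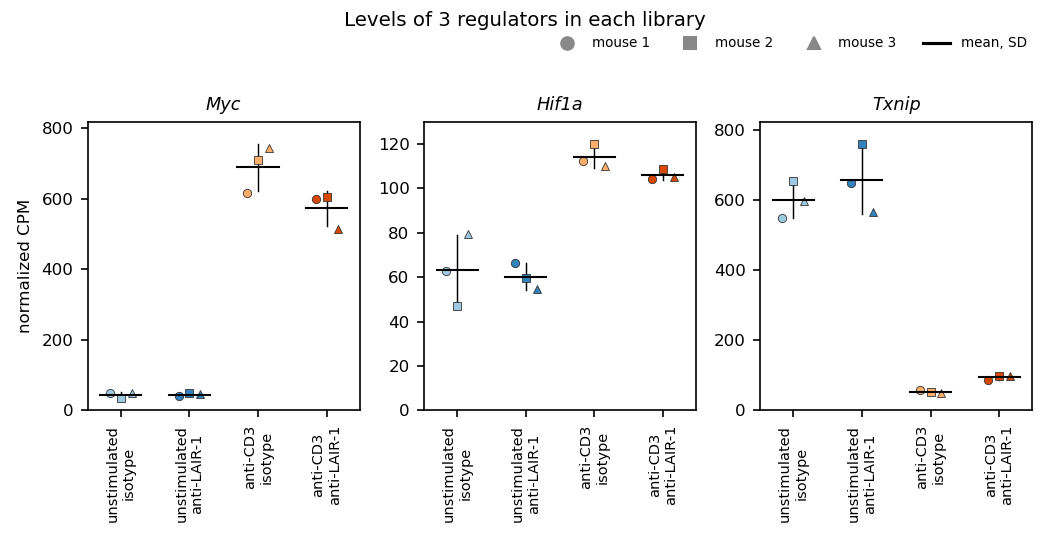
Normalized CPM of Myc, Hif1a and Txnip in each library (points, 1 symbol per mouse) with the mean and SD of the 3 libraries per condition, each axis from 0. Myc and Hif1a are higher and Txnip lower in all 6 anti-CD3 libraries, and the 3 Txnip points with anti-CD3 and anti-LAIR-1 (86.5 to 98.7 CPM) lie above those with anti-CD3 and isotype (48.3 to 58.0 CPM).

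Among these regulators only Txnip passed in an anti-LAIR-1 comparison (7.14% of the 14 tested, beside 5.76% of all genes with anti-CD3 and 2.07% for the interaction). With anti-CD3 it was at 58.0, 52.1 and 48.3 CPM with isotype and at 86.5, 98.7 and 97.2 CPM with anti-LAIR-1, without overlap. The log2 difference was 0.83 ± 0.10 (edgeR adjusted p = 7.0e-05), higher in 3 of 3 mice. In unstimulated cells it was at 550, 654 and 597 CPM and at 648, 761 and 565 CPM, with overlap and a log2 difference of 0.13. The interaction passed, at 0.71 ± 0.15 (edgeR adjusted p = 0.0091). Myc was at 601, 604 and 516 CPM with anti-CD3 and anti-LAIR-1, a log2 difference from isotype of -0.28 ± 0.08 that did not pass (edgeR adjusted p = 0.052) and that did pass without the anti-CD3 isotype library of mouse 1 (-0.35), by DESeq2 (-0.29), with DESeq2 size factors (-0.28) and without the filter (-0.27).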

How the data were processed

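The authors aligned CEL-seq reads to the mouse mm10 transcriptome with BWA MEM, discarded reads that mapped equally well to several places, and deposited raw read counts per gene with no normalization; whether reads were collapsed by molecular identifier is not given in the sources used here. From these deposited counts, genes were selected by symbol, and the members and lists were chosen with earlier results of these data known. The 2 groups of each comparison (all 12 libraries for the interaction) were fitted with edgeR 4.0.16 in R 4.3.3 (filterByExpr, TMM, quasi-likelihood F-test, no block), with Benjamini-Hochberg adjustment over all genes tested. The authors tested with DESeq2, which served here as an alternative (version 1.42.0). Levels are CPM after TMM over 12 libraries, and SEs were taken as the size of the log2 difference over the square root of F. A self-test on simulated data with planted 2-fold changes was run before use. There edgeR found 82.5% of these changes for anti-LAIR-1 with anti-CD3, 68.5% for anti-LAIR-1 unstimulated and 56% for the interaction. Values per library are given for paralogues and for the 2 genes of lowest p per step and direction, and other list genes up to 3 per direction and comparison. A gene that this rule would name is not reported here. Totals were 1781218 to 7725545 counts, and intervals for counts of 0 cover counting error only. Libraries numbered alike come from the same mouse. Deviations from group means correlated by 0.0489 on average within a mouse and -0.0245 between mice. The second value largely follows from the first, because the deviations of the 3 libraries of a group sum to 0. A permutation test of 3 against 3 libraries cannot go below 0.10. Other scalings, filters, a replicate block, thinning and leaving out each library were tried as alternatives. Promoter windows and gene annotation were those of GRCm38 (the same assembly as mm10).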

Additional observations from a re-analysis of the deposited data

Results flagged for a closer look

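Txnip was the only gene of the lists whose anti-LAIR-1 effect differed between stimulated and unstimulated cells by the test of the difference itself. The interaction was 0.71 ± 0.15 on the log2 scale (edgeR adjusted p = 0.0091), from a difference of 0.83 with anti-CD3 and 0.13 without. It was in the same direction in every alternative run, and its call was lost only when all libraries were thinned to the smallest total (0.62). Txnip is a regulator and no member of the 40 genes, none of which passed that test.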

How the results depend on the processing

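Of the 40 genes, the numbers called higher with anti-CD3 stayed within 1.5 times the reported counts in every alternative. The number called lower was 8 in place of 5 under isotype with upper-quartile scaling. Under anti-LAIR-1 it was 8 in place of 4 with that scaling and 7 with library totals alone. Upper-quartile scaling moved the median log2 difference of all genes from -0.03 to -0.20 under isotype and from -0.04 to -0.24 under anti-LAIR-1. With the replicate block for the mouse, 25 were higher and 5 lower under isotype, 27 and 4 under anti-LAIR-1, and 0 in the other comparisons, so pairing changed none of these counts. No alternative called any of the 40 genes for anti-LAIR-1 or the interaction. Thinning to the smallest total lowered the calls over all genes from 507 to 286 (anti-LAIR-1 with anti-CD3) and from 191 to 104 (interaction), with fewer genes tested.

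Signs changed only for genes that were not called. Under isotype, Pdha1 was at 0.0060 with DESeq2 size factors, 0.090 without a filter, 0.032 in 1 fit of 12 libraries, 0.052 by DESeq2, 0.066 thinned and -0.035 to 0.058 with a library left out. Gpi1 was at 0.032 without a filter and at -0.13 to 0.027 with a library left out. Cs was at -0.095 (upper quartile) and -0.012 (totals), and Slc2a3 at -0.21 to 0.063 with a library left out. Under anti-LAIR-1, Gpi1 was at 0.074 without a filter, 0.034 by DESeq2 and -0.035 to 0.042 with a library left out. Taldo1 was at -0.16 (upper quartile), -0.065 (totals), -0.0089 (thinned) and -0.020 to 0.18 with a library left out. Over the single genes given here, calls were lost 10 times under isotype, 25 times under anti-LAIR-1 and 1 time for the interaction, and gained 9, 11 and 0 times there and 4 times for anti-LAIR-1 with anti-CD3. The cause was not tested.

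Low counts limit Pfkm, Aldoc, Eno1 and Slc16a3, which were not tested, and Hk2 and Ldhb, whose levels rest on few counts. For Eno1, 66.2% of 3′ stretches were shared with other genes. Whether its low counts come from depth or from discarded reads was not tested. Only relative RNA levels were measured, in 3 mice at 1 time point.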
